A study of Mus musculus with 4 samples.

Results

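The Notch pathway was read through 34 of its genes in aggregates of iMN-ESCs, mouse embryonic stem cells that make the Isl1-Lhx3 fusion when given doxycycline (Dox). Isl1 and Lhx3 are LIM-homeodomain factors that together specify spinal motor neurons. The members were taken by name from 21822 gene units: 6 ligands, 4 receptors, 15 modifiers and signal transducers, and 9 Hes and Hey target genes. All 34 were found. The Dox group (2 libraries) formed aggregates over 2 days in stem cell medium with LIF, had all-trans retinoic acid (0.5 µM) alone over the next 2 days, and then both retinoic acid and 2 µg/mL Dox over another 2 to 3 days. The no Dox group (2 libraries) had the same cells, background strain (C57BL/6) and retinoic acid, without Dox in the last step. Neither group was Dox-treated cells without the transgene, so an effect of Dox itself and one of Isl1-Lhx3 cannot be told apart. The labels do not say whether the libraries of 1 group came from separate cultures, although the design text calls them biological duplicates.

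Notch signalling works between touching cells. A Delta or Jagged ligand on one cell binds a Notch receptor on its neighbour, the ADAM10 and gamma-secretase proteases cut the receptor, and its freed intracellular domain joins RBPJ and Mastermind proteins on DNA to switch on Hes and Hey repressors. In the neural tube, cells that start to become neurons carry Delta-like ligands, and Hes factors in their neighbours hold these back as progenitors.

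Part counts summed to 37311037 and 53903936 in the Dox libraries and to 28239859 and 24020832 in the no Dox libraries. Lhx3 stood at 125 and 108 CPM (counts per 1000000, scaled by TMM) with Dox and at 0.404 and 0.286 CPM without it, in accord with the labels of all 4 libraries. Markers of several cell types were present in both groups. Summed over 10 genes of extraembryonic endoderm, levels were 18843 and 22851 CPM with Dox and 18293 and 20965 CPM without it. Most of this sum was Lama1 and Sparc, which averaged 10144 and 8208 CPM. Afp and Ttr averaged 1.08 and 5.08 CPM, and the others between 58.3 (Foxa2) and 727 (Dab2) CPM. Over 11 neural progenitor genes the sums were 1432 and 1126 CPM with Dox and 1675 and 1382 CPM without. Of this, Vim alone had 752 and 633 CPM with Dox and 773 and 683 CPM without. Neither sum measures a share of cells. Of 6 pluripotency genes, Pou5f1, Nanog and Tdgf1 averaged under 1 CPM, while Esrrb, Zfp42 and Klf4 averaged 2.31, 3.67 and 73.5 CPM. Of 8 presomitic mesoderm and somite genes, Msgn1 was at 0 counts in every library and Mesp2, Ripply2 and T averaged under 1 CPM, while Tbx6, Tcf15, Uncx and Meox1 averaged between 1.41 and 2.99 CPM. Of 10 endothelial genes, Pecam1, Tie1, Emcn and Cldn5 averaged under 1 CPM, while Erg, Vwf, Kdr, Esam, Tek and Cdh5 averaged between 1.20 and 17.9 CPM. These are mixed aggregates, in which fewer cells of a type and less RNA per cell cannot be told apart.

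No Notch gene passed the test across all genes (edgeR's quasi-likelihood test, Benjamini-Hochberg adjusted p under 0.05): 0 of 33 tested were called higher, beside 1.23% of all genes, and 0 lower, beside 0.056%. At an unadjusted p under 0.05, 7 of the 33 were lower with Dox (Hes3, Hes5, Lfng, Dtx4, Nrarp, Dll1 and Jag1), beside 4.02% of all genes tested, and 2 were higher (Dtx1 and Hey2), beside 6.26%. DESeq2 on the same counts called Hes5, Dtx4, Lfng and Nrarp lower, where it called 0.812% of all genes lower, and Dtx1 higher, where it called 2.82% higher. limma-voom called none. In 13 of the 33 both Dox libraries lay below both no Dox libraries, beside 19.9% of all genes, and in 7 both lay above, beside 18.9%. The median log2 fold change (Dox over no Dox throughout) was -0.08 over the 33 members and -0.01 over all genes tested. By role it was -0.56 for ligands, -0.10 for receptors, 0.02 for modifiers and -0.17 for targets. With 1 library left out in turn, the median ran from -0.78 to -0.34 for ligands, -0.42 to 0.29 for receptors, 0.033 to 0.13 for modifiers and -0.20 to -0.059 for targets, so the receptors' sign depended on the libraries used. Differences between these roles were not tested.

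**Figure D1:**
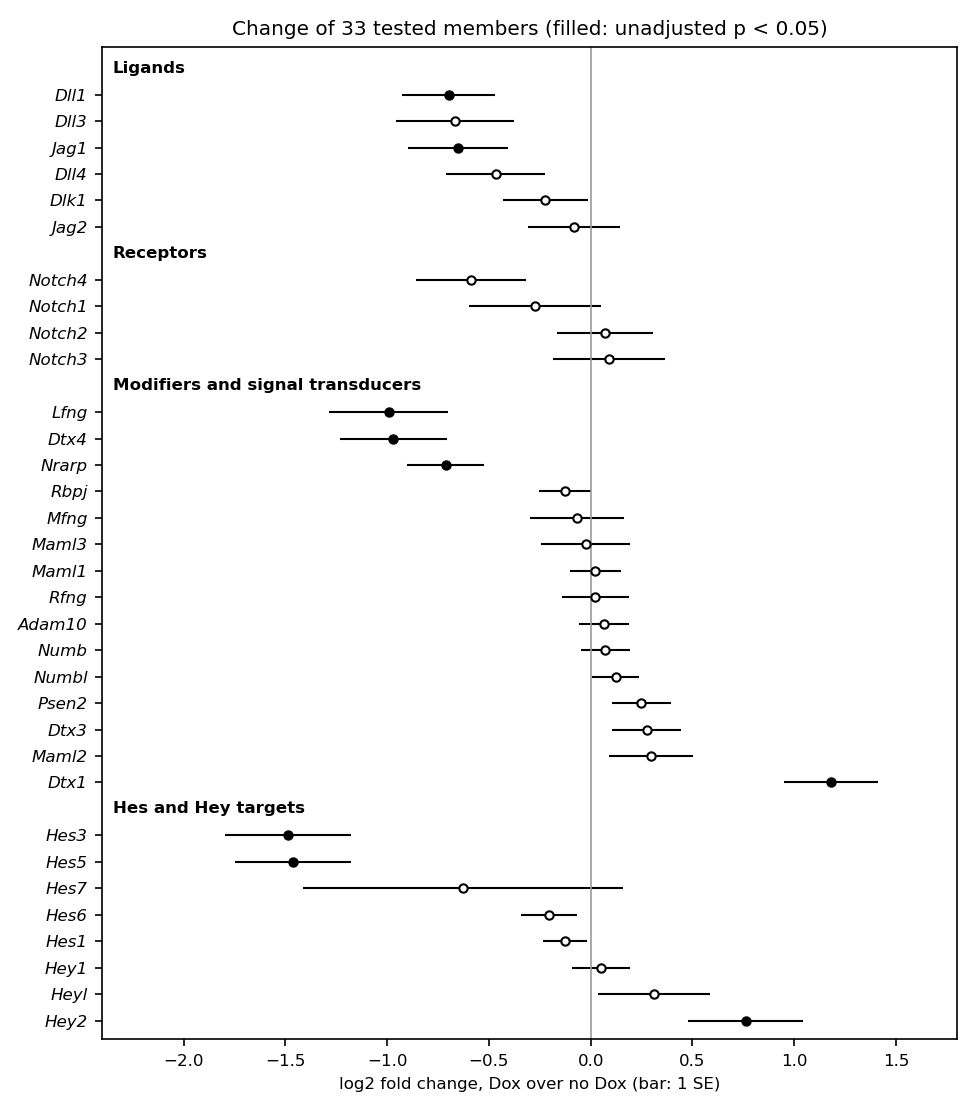
The log2 fold change (Dox over no Dox) of each of the 33 tested members with 1 standard error (bars), grouped by role, where filled points had an unadjusted p under 0.05 and none passed the adjusted threshold. All 6 ligands lie below 0, while the modifiers spread from -0.99 (Lfng) to 1.18 (Dtx1) and the targets from -1.49 (Hes3) to 0.76 (Hey2).

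Levels are compared between genes only per length, as CPM per kb of exon. A read over several parts may count in each, and length does not correct for this. The number of parts differs between genes, with 16 in Adam10, 6 in Dtx3 and 4 in Hes1. Averaged over the 4 libraries, Adam10, the protease that cuts the ligand-bound receptor before gamma-secretase does, was highest at 84.9 CPM per kb, ahead of Dtx3 at 72.4, Hes1 at 40.0 and Dtx4 at 36.4 CPM per kb. Adam10 and Dtx3 overlapped across the libraries, though Adam10 was above Dtx3 within each library. Hes1 and Dtx4 overlapped too. Dtx4 stood at 30.1 and 19.2 CPM per kb with Dox and at 56.7 and 39.8 CPM per kb without, and Hes1 at 37.3 and 39.1 CPM per kb with Dox and at 42.3 and 41.2 CPM per kb without. Among receptors Notch3 led at 23.0 CPM per kb, followed by Notch1 at 13.3 and Notch2 at 9.56. Notch4, a receptor best known from endothelium, stood at 0.338 CPM per kb. Among ligands Dlk1 (21.3 CPM per kb) and Dll1 (18.1 CPM per kb) were ahead of Dll3, Jag1 and Jag2 at 7.37, 7.05 and 5.46 CPM per kb. Neighbours in the order of these 3 receptors overlapped across the libraries, as did Dlk1 with Dll1, and Dll3, Jag1 and Jag2 with one another. Within each library the order Notch3, Notch1, Notch2 held, while that of Dlk1 and Dll1 did not. Dll4 was lowest of the ligands at 1.03 CPM per kb.

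**Figure D2:**
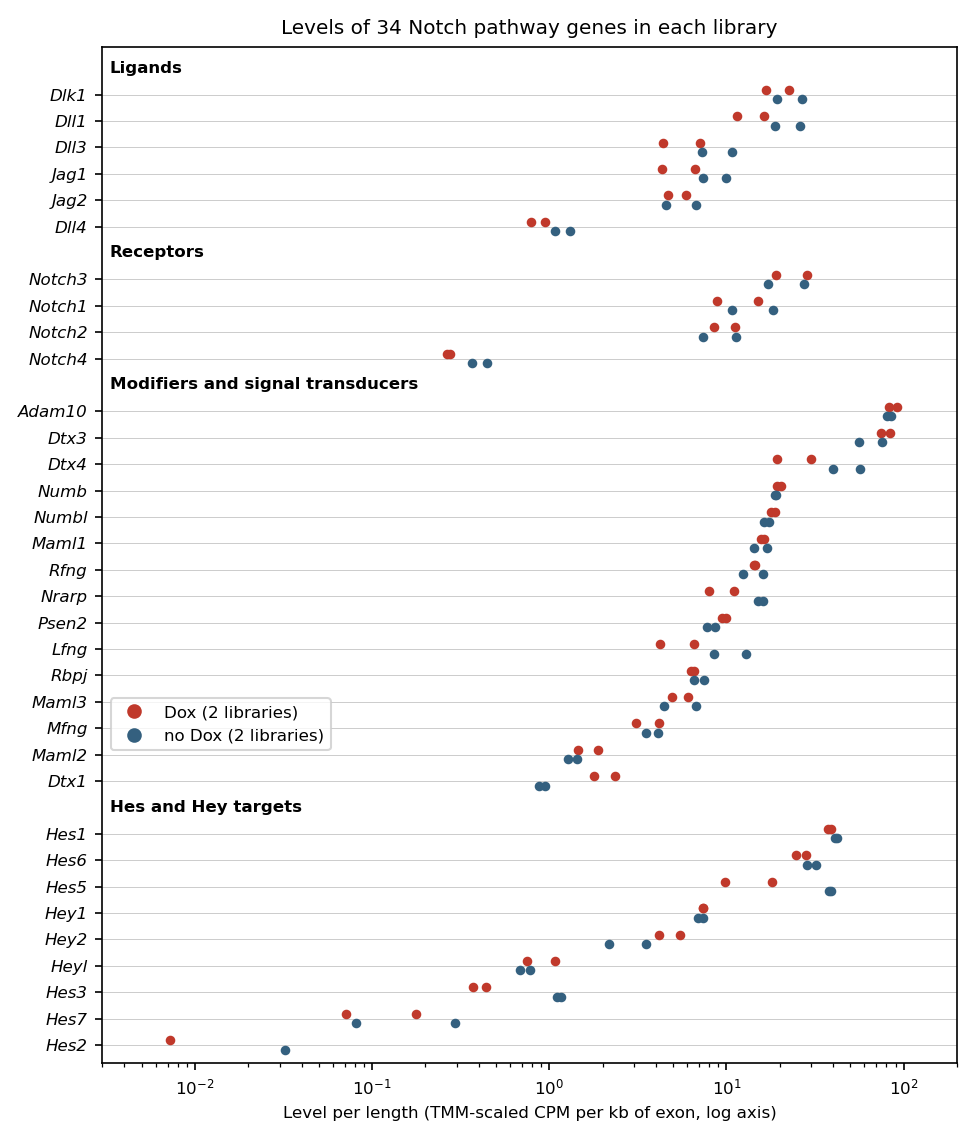
Level per kb of exon (TMM-scaled CPM per kb, log axis) of the 34 members in each Dox (red) and no Dox (blue) library, grouped by role and sorted by mean level. Adam10 and Dtx3 are highest and Hes2 is lowest. Of the 33 tested members, both Dox libraries lie below both no Dox libraries in 13, Hes5 among them. They lie above in 7, Dtx1 among them. Zero values of Hes2 are not drawn.

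The target genes did not share a direction. Hes5, a repressor that keeps neural progenitors undifferentiated, stood at 23.1 and 12.5 CPM with Dox and at 49.7 and 48.0 CPM without it. The groups did not overlap, and the Dox libraries differed from each other far more than the no Dox libraries did. The log2 fold change was -1.46 (SE 0.29, adjusted p = 0.0981 by edgeR and 2.65e-05 by DESeq2). With Dox replicate 1 left out, edgeR called it (-1.97, adjusted p = 3.62e-06), and likewise with Dox replicate 2 left out (-1.06, adjusted p = 0.0103). In any fit with a library left out, 1 group is a single library, and the spread comes from the other pair, moderated across genes, with the lone library assumed to vary like that pair. For Hes5 that pair was the 2 close no Dox libraries in both called fits. Over the 4 such fits the adjusted p ran from 3.62e-06 to 0.162.

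Hes3, another Hes repressor of neural progenitors, was scarce, with 30 and 37 counts in the Dox libraries and 55 and 52 in the shallower no Dox libraries. That is 0.803 and 0.677 CPM with Dox against 2.02 and 2.12 CPM without, or -1.49 on the log2 scale (SE 0.31, adjusted p = 0.113). The groups did not overlap, and no fit with a library left out called it.

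Hes1, the most abundant target, differed little. It stood at 54.7 and 57.4 CPM with Dox and at 62.0 and 60.5 CPM without (log2 fold change -0.13, SE 0.11, adjusted p = 0.822). Hes6, which is known to antagonise Hes1 and to favour neuronal differentiation, stood at 37.5 and 32.9 CPM with Dox and at 38.2 and 42.8 CPM without (-0.20, SE 0.14, adjusted p = 0.739). Both Dox libraries were below both no Dox libraries in each of these genes, and for Hes6 the gap was smaller than the distance between the libraries of either group.

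Of the Hey genes, which encode the bHLH repressors related to Hes, Hey2 lay on the other side. It had 10.6 and 13.9 CPM with Dox and 5.54 and 8.98 CPM without, so the groups did not overlap (log2 fold change 0.76, SE 0.28, adjusted p = 0.425). The gap between them was smaller than the distance between the libraries of either group. Hey1 was level at 17.9 and 17.9 CPM with Dox against 17.8 and 16.7 CPM without. Heyl overlapped between the groups (log2 fold change 0.31, SE 0.28). Hes7, the oscillating repressor of the presomitic mesoderm, had 19 counts in the Dox libraries together and 17 in the no Dox libraries, a depth-corrected ratio of 0.629 (95% counting interval 0.309 to 1.29). Hes2 had 1 count with Dox and 2 without, under the floor of 3 counts, and was not tested.

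Hes5, Lfng and Hey2 each had an unadjusted p under 0.05, the first 2 lower and the last higher with Dox, and their promoters are shown because each holds a pair of matches to TGGGAA, the core that RBPJ recognises. Sequences run 5′ to 3′ on the gene's strand from 250 bases before its RefSeq start to 50 after it (RefSeq, GRCm38.p6: chr4:154960673-154960972, + strand, for Hes5, chr5:140607091-140607390, + strand, for Lfng, and chr10:30842734-30843033, - strand, for Hey2). Capitals mark the motif on either strand.
Hes5: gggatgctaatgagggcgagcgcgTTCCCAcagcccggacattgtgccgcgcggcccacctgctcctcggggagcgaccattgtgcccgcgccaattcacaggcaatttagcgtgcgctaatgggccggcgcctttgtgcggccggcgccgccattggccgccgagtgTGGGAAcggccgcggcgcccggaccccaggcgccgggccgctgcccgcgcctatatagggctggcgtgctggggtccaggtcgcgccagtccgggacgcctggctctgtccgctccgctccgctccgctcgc
Lfng: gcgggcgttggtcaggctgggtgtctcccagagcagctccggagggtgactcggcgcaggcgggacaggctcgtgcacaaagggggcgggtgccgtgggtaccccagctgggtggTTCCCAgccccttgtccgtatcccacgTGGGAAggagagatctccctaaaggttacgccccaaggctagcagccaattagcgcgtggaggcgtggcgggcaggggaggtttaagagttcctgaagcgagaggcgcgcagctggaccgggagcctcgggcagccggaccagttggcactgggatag
Hey2: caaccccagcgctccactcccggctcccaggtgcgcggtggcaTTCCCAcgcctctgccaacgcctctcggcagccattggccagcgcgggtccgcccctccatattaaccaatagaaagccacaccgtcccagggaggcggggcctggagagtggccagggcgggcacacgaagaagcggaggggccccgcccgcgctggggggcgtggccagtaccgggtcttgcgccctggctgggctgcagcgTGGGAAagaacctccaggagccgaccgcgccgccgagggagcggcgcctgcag
In all 3 windows the match farther upstream is on the opposite strand and the one nearer the start on the gene's strand. No other motif was searched. Promoters were given for 26 of the 34 members, and 8 of these held at least 1 match: Hes5, Hes7, Hey2, Lfng, Maml2, Maml3, Psen2 and Rbpj. Of all 32851 mouse promoters in the table, 25.6% held a match and 3.79% at least 2. Counted the same way, 9 of the 33 promoters listed for the 26 members held a match. Hes1, Hes2, Hes3, Hey1, Heyl, Dtx3, Dtx4 and Mfng had no entry. At least 2 matches were held by 4 members, the 3 shown and Rbpj, whose log2 fold change was -0.12. This is a count of genes, while the 3.79% is of promoters. Nrarp, Dll1 and Jag1, whose values were lower with Dox, held none in this window. Neither did Dtx1, whose values were higher.

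All 6 ligands were at or below the no Dox level by the fold change, without a call. Dll1, the main Delta ligand of nascent spinal neurons, stood at 58.2 and 40.9 CPM with Dox and at 93.6 and 66.9 CPM without (log2 fold change -0.70, SE 0.23, adjusted p = 0.336). Jag1, a Jagged ligand of certain progenitor domains, stood at 37.4 and 24.2 CPM with Dox against 55.4 and 41.2 CPM without (-0.65, SE 0.25, adjusted p = 0.436). Dll3, a divergent Delta that acts inside the cell rather than as an activating ligand, stood at 18.5 and 11.4 CPM with Dox and at 28.2 and 19.1 CPM without (-0.67, SE 0.29, adjusted p = 0.525). In these 3 genes the groups did not overlap, but the gap between them was smaller than the distance between the libraries of 1 group. Without Dox replicate 1, where the no Dox pair alone gives the spread, edgeR called Dll1 (-0.97, adjusted p = 0.0183) and Jag1 (adjusted p = 0.0252). With any other library left out it called neither.

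The remaining ligands gave no separation or a small one. Dll4, prominent in endothelium and in V2 interneuron precursors, was low at 3.53 and 2.97 CPM with Dox and 4.92 and 4.04 CPM without (-0.47, SE 0.24, adjusted p = 0.621). Beside it, 10 endothelial markers summed to 39.2 and 62.8 CPM with Dox and to 32.7 and 52.7 CPM without. Most of this sum was Cdh5 and Tek, which averaged 17.9 and 17.4 CPM. Of the 10 markers only Erg was called, and it was higher (log2 fold change 4.26, adjusted p = 0.0197 by edgeR). With the largest part as the count it was not called (adjusted p = 0.0651). Erg had 71 and 146 counts with Dox and only 2 and 4 without. Of the 7 markers tested, 6 had a fold change above 0, but Cdh5 (0.05), Tek (0.34) and Esam (-0.12) overlapped between the groups. The part of such cells in the Dll4 and Notch4 values was not tested. Jag2 overlapped between the groups (log2 fold change -0.08, SE 0.23). So did Dlk1, an imprinted relative of Delta that lacks the receptor-activating domain, with 80.3 and 108 CPM with Dox and 92.5 and 127 CPM without (-0.22, SE 0.21, adjusted p = 0.843).

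The 3 abundant receptors overlapped between the groups, and the libraries of each group lay far apart. Notch1 stood at 143 and 84.4 CPM with Dox and at 173 and 102 CPM without (log2 fold change -0.27, SE 0.33, adjusted p = 0.886). Notch3 stood at 227 and 153 CPM with Dox and at 219 and 137 CPM without (0.09, SE 0.28, adjusted p = 0.975), and Notch2 at 117 and 89.0 CPM with Dox and at 119 and 77.1 CPM without (0.07, SE 0.23, adjusted p = 0.981). In all 3, replicate 1 was higher than replicate 2 within each group. With a no Dox library left out, the direction of these 3 depended on which it was. Without no Dox replicate 1 the log2 fold changes were 0.16 for Notch1, 0.42 for Notch2 and 0.48 for Notch3. Without no Dox replicate 2 they were -0.60, -0.21 and -0.21. Such fits set both Dox libraries against a single no Dox library. Between same-numbered libraries the log2 ratios (Dox over no Dox) were -0.27 and -0.28 for Notch1. They were -0.03 and 0.21 for Notch2 and 0.05 and 0.16 for Notch3. The labels do not say what a number marks. Of the 33 tested members, 17 were higher in replicate 1 than in replicate 2 in both groups and 7 lower in both. The same count over all genes was not made. Over all genes tested, the deviations of same-numbered libraries from their group means correlated (r = 0.605). Notch4 had 1.82 and 1.74 CPM with Dox and 2.42 and 2.94 CPM without, with no overlap (-0.59, SE 0.27, adjusted p = 0.555).

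**Figure D3:**
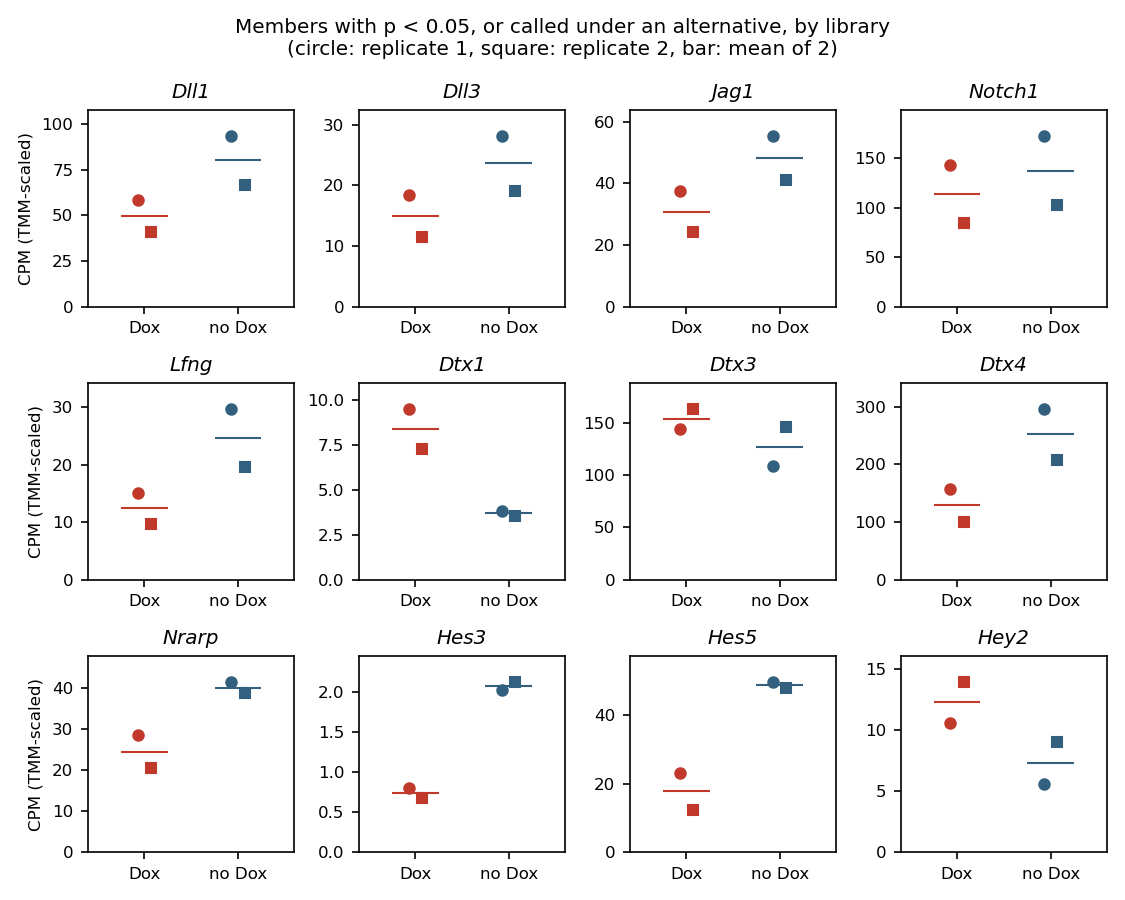
TMM-scaled CPM (y axis, from 0) in each Dox (red) and no Dox (blue) library for the 12 members with an unadjusted p under 0.05 or a call under some alternative. Circles are replicate 1, squares replicate 2 and bars the mean of 2. The groups do not overlap in 10 of the 12 and overlap in Notch1 and Dtx3.

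Among the modifiers, the Fringe enzyme Lfng, a glycosyltransferase that tunes which ligands a Notch receptor answers to, stood at 15.2 and 9.70 CPM with Dox and at 29.8 and 19.5 CPM without. The groups did not overlap (log2 fold change -0.99, SE 0.29, adjusted p = 0.269 by edgeR and 0.0316 by DESeq2). The gap between them was smaller than the distance between the libraries of either group. The other Fringe genes, Mfng and Rfng, overlapped between the groups, with log2 fold changes of -0.07 (SE 0.23) and 0.02 (SE 0.16).

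Nrarp, a small ankyrin protein that is itself switched on by Notch and feeds back on the receptor's intracellular domain, stood at 28.6 and 20.4 CPM with Dox and at 41.6 and 38.7 CPM without. The groups were apart (-0.71, SE 0.19, adjusted p = 0.214 by edgeR and 0.0456 by DESeq2). With Dox replicate 2 as the lone Dox library, and the spread taken from the no Dox pair, edgeR called Nrarp (-0.97, adjusted p = 0.0315) and Lfng (-1.35, adjusted p = 0.00812). With any other library left out it called neither.

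The Deltex genes, which encode ubiquitin ligases that act on Notch trafficking, had fold changes of both signs. Dtx4 stood at 157 and 100.4 CPM with Dox and at 296 and 208 CPM without (-0.97, SE 0.26, adjusted p = 0.227 by edgeR and 0.00843 by DESeq2). Its groups did not overlap, but the gap between them was smaller than the distance between the libraries of either group. Dtx1 was low in all libraries, at 9.50 and 7.25 CPM with Dox and 3.82 and 3.55 CPM without, also with no overlap (1.18, SE 0.23, adjusted p = 0.0973 by edgeR and 0.00339 by DESeq2). Dtx3, which is far more abundant, overlapped at 145 and 164 CPM with Dox and 108 and 147 CPM without (0.27, SE 0.17, adjusted p = 0.707). With 1 Dox library left out, and so with the spread of the no Dox pair only, edgeR called Dtx4 without replicate 1 (-1.33, adjusted p = 0.00129) and Dtx1 without replicate 2 (1.38, adjusted p = 0.022). With all 4 libraries and no filter on low counts it called Dtx1 (1.20, adjusted p = 0.0429).

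Of 8 members that cut the receptor, carry its signal to DNA or antagonise it, none had an unadjusted p under 0.05. Adam10 stood at 378 and 419 CPM with Dox and at 371 and 391 CPM without (0.07, SE 0.12, adjusted p = 0.954). Rbpj, the DNA-binding partner of the Notch intracellular domain, had a log2 fold change of -0.12 (SE 0.13), and the Mastermind coactivators Maml1, Maml2 and Maml3 had 0.02, 0.30 and -0.03. The Notch antagonists Numb and Numbl had 0.07 (SE 0.12) and 0.12 (SE 0.12). Psen2, a catalytic subunit of gamma-secretase, had 0.25 (SE 0.14, adjusted p = 0.674). Both Dox libraries lay above both no Dox libraries in Numb, Numbl, Maml2 and Psen2 and below them in Rbpj. The groups overlapped in Adam10, Maml1 and Maml3.

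**Figure D4:**
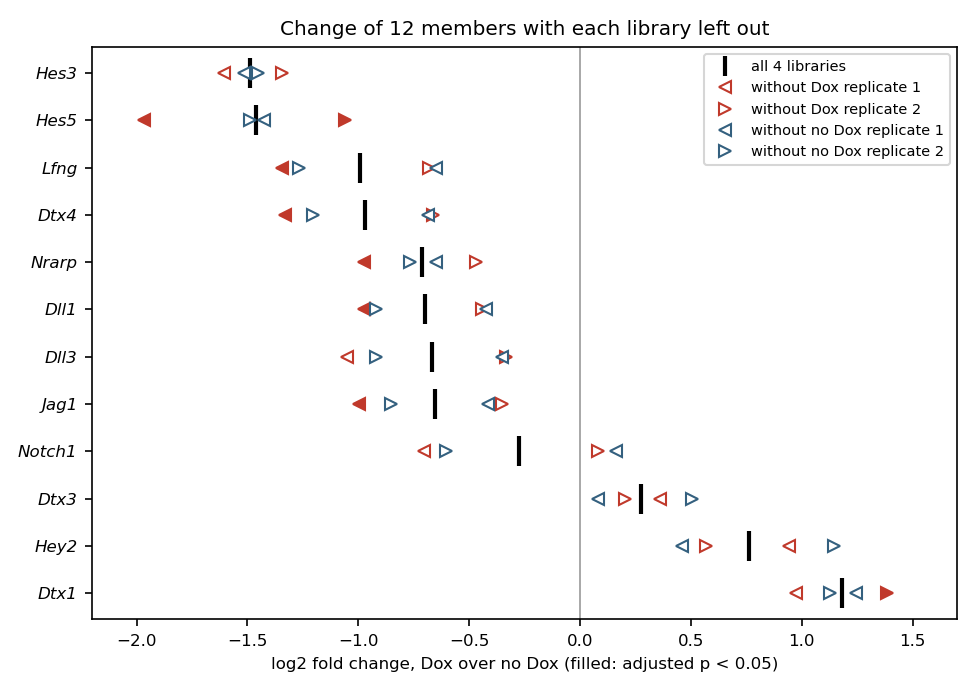
The log2 fold change (Dox over no Dox) of the same 12 members with all 4 libraries (black bars) and with each library left out (triangles, red for a Dox and blue for a no Dox library), where filled triangles passed an adjusted p of 0.05. Hes5 passes with either Dox library left out, 5 others on the lower side pass only without Dox replicate 1, and Notch1 is the one member here that crosses 0.

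Counts were deposited per part of a gene, so a difference confined to some parts could be looked for. Of the members 28 could be tested for part use, and 0 were called by edgeR's gene-level Simes test (smallest unadjusted p = 0.529, for Dll4) or by its F test. The Simes test called 0.0173% of all genes, so it gave few calls anywhere in these data. Its unadjusted p for the members ran from 0.529 to 0.9985 (Notch3), all in the upper part of the range. The 0 calls therefore do not show that part use was the same in both groups.

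Of 60 other genes tied to the pathway, 54 were tested and 2 were called higher with Dox, beside 1.23% of all genes, and 0 lower, beside 0.056%. The 2 were noncanonical ligands. Cntn1, an axonal cell adhesion molecule also described as a Notch ligand, stood at 41.7 and 33.3 CPM with Dox and at 3.597 and 2.49 CPM without (log2 fold change 3.62, SE 0.24, adjusted p = 0.00289). Mfap2, a microfibril protein reported to bind Notch1 and Jag1, stood at 41.6 and 37.8 CPM with Dox and at 19.9 and 21.7 CPM without (0.93, adjusted p = 0.0404). The call on Mfap2 was lost without Dox replicate 1 (adjusted p = 0.0625) and with the largest part as the count (adjusted p = 0.072). At an unadjusted p under 0.05, 8 of the 54 were higher, beside 6.26% of all genes, and 3 lower, beside 4.02%. The median log2 fold change was 0.05 over 8 genes of receptor cleavage, -0.05 over 3 of glycosylation, 0.20 over 4 of ligand ubiquitination and 0.07 over 7 of receptor trafficking. It was 0.02 over 5 nuclear coactivators and 0.10 over 14 corepressors. Over 4 noncanonical ligands it was 0.41, with Cntn1 and Mfap2 above 0 and Egfl7 (-0.10) and Dner (-0.74, SE 0.34) below. Over 9 bHLH relatives it was -0.18, and 6 of these lay below 0, beside 7558 of 14283 over all genes tested. Besides Cntn1 and Mfap2, the higher genes were Tle2, a Groucho corepressor that Hes proteins recruit (1.30, SE 0.27, adjusted p = 0.115), Neurl1b (0.997), Fbxw7 (0.51), Furin, which cleaves the receptor as it matures (0.50), Kat2b (0.41) and Id2 (0.39), none of them called. The 3 lower ones were Id3, an inhibitor of bHLH factors, and the proneural factors Neurog1 and Neurog2. Neurog2 stood at 2.27 and 2.09 CPM with Dox and at 7.41 and 5.51 CPM without (-1.57, SE 0.25, adjusted p = 0.056), and Neurog1 at 15.9 and 10.4 CPM with Dox and at 29.0 and 26.9 CPM without (-1.09, adjusted p = 0.116).

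Most markers of progenitors, dividing cells and neurons also had fold changes below 0. Of 11 neural progenitor genes 8 had a log2 fold change below 0, 4 of them at an unadjusted p under 0.05, and the median was -0.47. Over all genes tested, 7558 of 14283 lay below 0 and 4.02% were lower at that p. Pax6 stood at 87.2 and 67.4 CPM with Dox and at 149 and 134 CPM without (-0.87, adjusted p = 0.0746), and Sox2 at 92.5 and 62.6 CPM with Dox and at 129 and 112 CPM without (-0.64, adjusted p = 0.314). Of the 11 only Nkx6-2 was called, and it was higher (3.23, adjusted p = 0.00389). All 8 genes of cycling cells lay below 0 (median -0.30), none called. Of 10 neuron markers 8 lay below 0 (median -0.49), 4 of them at an unadjusted p under 0.05. The summed level of the 10 was higher, at 1474 and 1210 CPM with Dox and 816 and 624 CPM without. The 2 above 0 were Nefm and Nefl, so the higher sum came from these. Of these Nefm, a neurofilament gene, was called higher (1.57, adjusted p = 0.00757), and Nefl was at 900.1 and 659 CPM with Dox and 277.5 and 166 CPM without (1.81, adjusted p = 0.0526). The part that these cell types had in the values of Hes5, Dll1 and the other lower members was not tested. The 10 extraembryonic endoderm genes had a median of 0.05.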

How the data were processed

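Libraries were made with the Illumina TruSeq RNA protocol, per the labels' protocols, and aligned with TopHat to mm9, per the submitters' processing notes. Which counting tool, annotation and strand setting were used is not given in the sources used here. As deposited, the authors' data are 1 table of raw counts per library, over 208825 parts of genes. A read over several parts may count in each. The 4 rows that name no gene stayed out (13.6% to 15.8% of counts lay outside genes).

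Parts were summed to 21822 gene units, named through the RefSeq table of GRCm38.p6 and GENCODE M21 (97.1% of 27601 identifiers matched). Exon length is the union of exons of the matching GENCODE transcripts. This later build gave no coordinates for the counts, only names, lengths and promoter sequences. Genes were tested across all genes with edgeR 4.0.16 in R 4.3.3 (quasi-likelihood F test, robust, TMM scaling, default low-count filter, which kept 14283 genes, Benjamini-Hochberg adjustment at 0.05). The SE is the fold change divided by the root of F. Part use was tested with edgeR on 11556 genes. DESeq2 1.42.0, limma 3.58.1, other scalings and filters, each library left out, the replicate number as a block and the largest part as the count were alternatives. Libraries of 1 group differed beyond counting error (chi-square of their counts over its degrees of freedom 32.7 with Dox and 36.7 without). The counting intervals are exact (binomial, 95%) and, like the floor of 3 counts, cover counting error only. The scripts were tested on simulated data. P-values measure the spread between 2 libraries a group and, with a library left out, that of the other group's pair only.

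The members, the gene lists and the tests were chosen with earlier results of these data known. Values per library are given for members with an unadjusted p under 0.05 or a call under some alternative and for the member of each role with the highest level per kb. For the other 60 pathway genes they are given for those called. Values of further members, and of the other pathway genes and markers named, were chosen for print after they were seen. Dlk2, on the pathway list, was not analysed here.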

Additional observations from a re-analysis of the deposited data

How the results depend on the processing

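Across 12 alternatives the 33 members gave 394 values, of which 350 kept direction and side of the threshold, 26 passed it where the reported fit did not, and 18 in 10 members changed sign, none of them called. Genes called higher numbered 295 with no filter, 403 in DESeq2 and 276 to 283 with a library left out. Genes called lower numbered 16 with library totals, 46 with no filter, 116 in DESeq2, 14 with the largest part and 22 to 124 with a library left out. Members called higher were 1 with no filter, beside 1.67% of all genes, and 1 in DESeq2, beside 2.82%. Members called lower were 4 in DESeq2 and 0 to 6 with a library left out, the 6 without Dox replicate 1, where 0.859% of all genes were called lower. The median of the members ran from -0.18 to 0.036 with a library left out. The cause of these shifts was not tested.

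With a library left out the log2 fold change ran from -0.34 to 0.24 for Jag2, -0.43 to 0.023 for Dlk1, -0.70 to 0.16 for Notch1, -0.21 to 0.42 for Notch2, -0.22 to 0.48 for Notch3, -0.29 to 0.16 for Mfng, -0.15 to 0.23 for Rfng, -0.10 to 0.16 for Maml1, -0.29 to 0.31 for Maml3 and -1.35 to 0.53 for Hes7. Maml3 was at 0.0035 with library totals and 0.081 with the largest part.

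Under the replicate block, edgeR called 3 members higher (Dtx1, Dtx3 and Hey2) and 9 lower (Dll1, Dll3, Jag1, Notch1, Lfng, Dtx4, Nrarp, Hes3 and Hes5), among 1047 genes higher (7.33%) and 869 lower (6.08%). The deviations of same-numbered libraries from their group means correlated across genes (r = 0.605), but the labels do not say what a number marks, and there are only 2 pairs. At these depths no difference was detectable beyond counting error for Hes2 and Hes7. The part-use test called 0 members under each of its alternatives, the replicate block included.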
